A study of Mus musculus with 29 samples.

Results

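Fatty acid oxidation, ketone body and peroxisome genes were followed as a set of 35 genes chosen by name, all 35 of which have a row among the 36172 gene rows of the deposited matrix. The set holds 3 genes of the carnitine shuttle, 5 mitochondrial acyl-CoA dehydrogenases, 5 enzymes that shorten the acyl chain, 3 genes of the electron transfer flavoprotein pathway, 4 helpers for unsaturated fatty acids, 3 ketone body enzymes, 6 peroxisomal oxidation genes, 3 peroxisomal membrane proteins, 2 peroxisome biogenesis genes and the transcription factor Ppara. Brain RNA came from tamoxifen-induced Aldh1l1-Cre/Ert2+; NuTRAP+ mice (mice 290, 293 and 294) and Cx3cr1-Cre/Ert2+; NuTRAP+ mice (mice 155, 192, 194, 209, 210 and 277), males and females about 3 months old, given tamoxifen daily for 5 days, with 1 copy of the Cre driver and 1 of the NuTRAP reporter. After Cre recombination the NuTRAP reporter puts EGFP on the ribosomal protein L10a, in astrocytes where the Aldh1l1 promoter drives Cre and in microglia where the Cx3cr1 promoter does. Cleared brain homogenate is the input, the RNA held on anti-GFP beads is the positive fraction, the RNA left unbound is the negative fraction, and the slice is RNA extracted conventionally from tissue. The 29 libraries were 3 positive and 3 negative from the Aldh1l1 line, and 6 positive, 6 negative, 6 input and 5 slice from the Cx3cr1 line (mouse 155 has no slice library here). Input and slice of the Aldh1l1 line were not analysed here, and no mouse without tamoxifen or without Cre entered.

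Mitochondrial beta-oxidation begins when carnitine palmitoyltransferases carry long-chain acyl groups across the mitochondrial membranes, after which dehydrogenases, hydratases, hydroxyacyl dehydrogenases and thiolases remove acetyl-CoA units. Acetyl-CoA can be converted into ketone bodies or regained from them, and peroxisomes shorten the very long and branched chains that mitochondria do not start on. Ppara encodes a nuclear receptor, activated by fatty acids, with known targets in all of these pathways. In the brain, most oxidation of fatty acids is ascribed to astrocytes, while neurons and glia alike can burn ketone bodies.

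Total counts per library ranged from 4260949 (slice, mouse 210) to 26857866, and the lowest raw count of any member in any library was 14. The labels were checked against marker lists. In the Aldh1l1 positive fraction 16 of 16 astrocyte markers were higher than in the negative fraction and 15 of 15 microglia markers tested and 13 of 13 neuron markers were lower, while 9 of 9 choroid plexus markers and 3 of 4 ependymal markers tested were higher as well. Of the other lists, 10 of 11 oligodendrocyte markers were lower, 3 of 9 oligodendrocyte precursor markers were higher and 6 lower, 2 of 9 pericyte and smooth muscle markers were higher and 4 lower, and 0 of 11 endothelial markers were called. In the Cx3cr1 positive fraction 16 of 16 microglia markers were higher than in input (median log2 fold change 3.60), but RNA of other cells remained abundant there: the summed level of 13 neuron markers was 9002 to 12464 counts per 1000000 counts of the library (CPM), against 11723 to 12351 in input, and that of 16 astrocyte markers was 2567 to 3793 CPM, against 4160 to 4682. The positive library of mouse 290 was the highest of the 3 for 19 of 35 members and the lowest for 13. That of mouse 293 was the highest for 9 and the lowest for 17, and that of mouse 294 for 7 and 5. The library of mouse 290 also had the lowest summed astrocyte markers of the 3 (15044 CPM, against 23733 and 22056 CPM) and the highest summed microglia (192 CPM, against 86.6 and 93.6 CPM), ependymal, choroid plexus and oligodendrocyte precursor markers. The part of this in the members was not tested. Mouse 155 stood apart in the Cx3cr1 line, as its negative or input library gave 9 of 13 member values far from their group. Scp2, Acadl, Acadsb, Etfb, Etfdh, Abcd3, Hsd17b4, Hadhb and Decr1 each overlap another gene on the same strand, so that reads could be divided between them. In bulk RNA, fewer cells of a type and less RNA per cell cannot be told apart, nor can the amount of an mRNA and its share on tagged ribosomes.

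In the astrocyte positive fraction, fatty acid oxidation, ketone and peroxisome genes were higher almost throughout. Of the 35 members, 31 were higher than in the negative fraction, 1 was lower (Cpt1c) and 3 were not called (Decr2, Acox3 and Pex5), by edgeR's quasi-likelihood test with Benjamini-Hochberg adjustment over 13319 genes. The 31 include Pex11a, which was tested only because of its counts in the positive libraries, so its call supports nothing. Of all genes tested, 26.8% were called higher and 24.8% lower. The median log2 fold change of the members was 2.04, against 0.04 over all genes tested, and it ranged from -0.91 (Cpt1c) to 4.03 (Pxmp2). Summed over the members, the level was 5410, 4792 and 5060 CPM in the positive libraries of mice 290, 293 and 294. In their negative libraries it was 2055, 1829 and 1837 CPM. Positive and negative libraries did not overlap for any of the 32 called members, beside 21.4% of all genes tested that lay wholly higher and 41.6% wholly lower. Within mice, 31 members had a higher CPM in the positive fraction in 3 of 3 mice and 3 had a lower one (Cpt1c, Decr2 and Pex5). This count used plain CPM and was not made over all genes, so it has no background share. Without mouse 290, 32 members were higher and 1 lower. Choroid plexus markers rose with the members, from a summed 502 to 652 CPM in the negative libraries to 2974 to 3407 CPM in the positive ones, ependymal markers from 25.9 to 40.5 CPM to 59.1 to 93.4 CPM, and astrocyte markers from 2970 to 3816 CPM to 15044 to 23733 CPM. How much each of these cell types gave to the members was not tested.

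**Figure D1:**
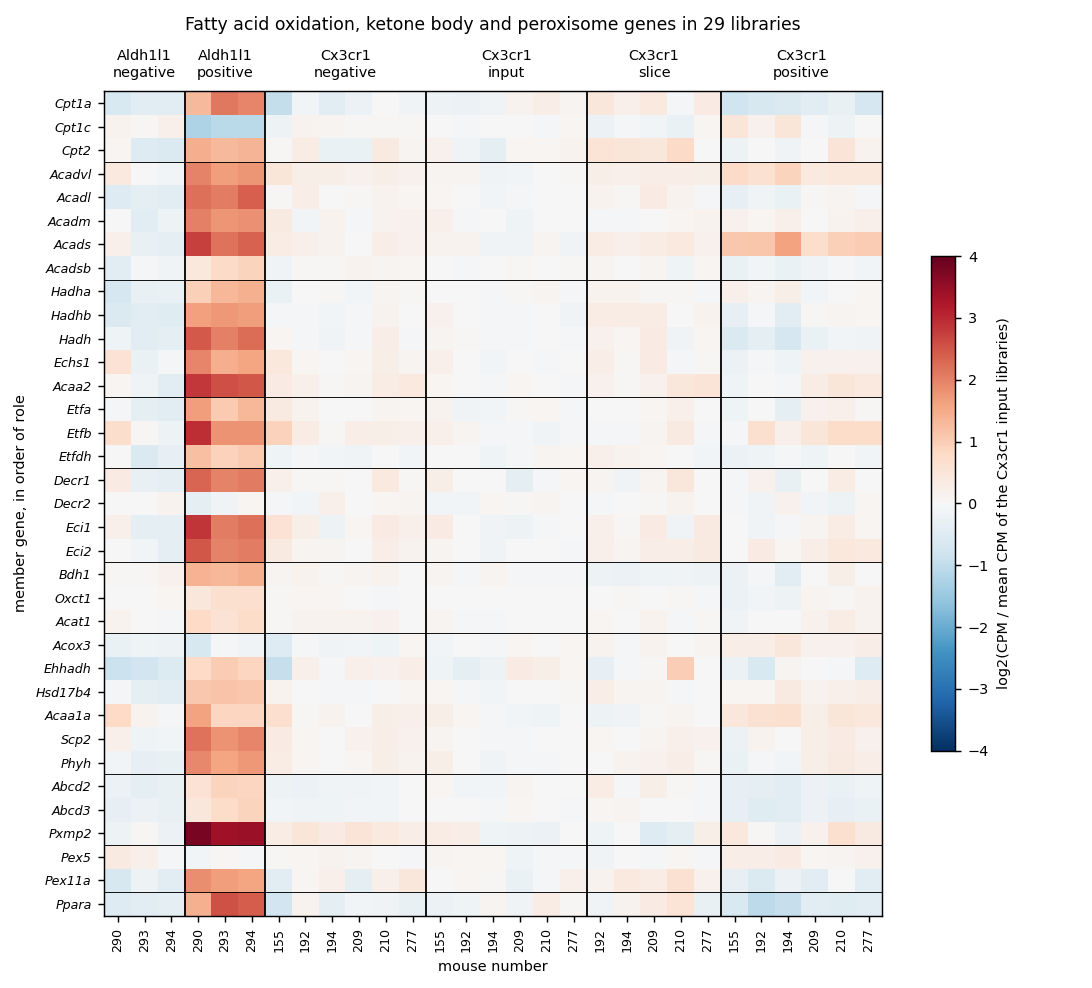
Log2 ratio of each member's CPM to its mean in the 6 Cx3cr1 input libraries (colour), by gene (rows, black lines between roles) and by library (columns, mouse numbers below, group names above). The 3 Aldh1l1 positive libraries are red for nearly all rows, with Cpt1c blue, whereas the 6 Cx3cr1 positive libraries stay close to the other fractions.

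All fold changes are on the scale of edgeR's TMM factors. Scaling by total counts alone moved the median log2 fold change of all genes by -0.35 in this comparison, by -0.31 between the positive fractions of the lines and by -0.28 in the test of the difference between lines. With total counts the calls of this comparison split into 2436 genes higher and 4824 lower, in place of 3569 and 3299, while the member counts remained 31 and 1. Plain CPM, as given here for single libraries, has no TMM factor. Hence a gene such as Pex5, the import receptor for most peroxisomal matrix proteins, had 61.6, 68.2 and 63.7 CPM in the positive libraries and 84.4, 76.9 and 64.0 CPM in the negative ones, yet a log2 fold change of 0.13 ± 0.16 (SE, adjusted p = 0.542 by edgeR).

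The carnitine shuttle split by isoform. Cpt1a, the liver-type carnitine palmitoyltransferase 1 and the main control point of long-chain entry (GRCm38 chr19:3323301-3385733), had 89.9, 157 and 143 CPM in the positive libraries of mice 290, 293 and 294, and 24.2, 27.4 and 27.1 CPM in their negative libraries. The groups lay far apart, with mouse 290 the lowest of the positive ones, and the log2 fold change was 2.65 ± 0.23 (SE, n = 3 mice, adjusted p = 0.000131 by edgeR). Cpt1c, the isoform found mainly in neurons and placed at the endoplasmic reticulum (chr7:44959372-44974851), went the other way: 38.4, 42.9 and 42.5 CPM in the positive libraries against 99.4, 92.7 and 104 CPM in the negative ones. Its log2 fold change was -0.91 ± 0.14 (adjusted p = 0.00134 by edgeR), and neuron markers, whose summed level was 2770 to 3374 CPM in the positive and 11671 to 12980 CPM in the negative libraries, were lower beside it. Per kilobase of exon, Cpt1a stood at 1.52, 2.37 and 2.17 times the level of Cpt1c within the 3 positive libraries and at 0.158, 0.191 and 0.169 times within the negative ones, so the isoform with the higher level differed between the fractions. Cpt2, which regenerates acyl-CoA on the matrix side, had 6.00 to 9.48 CPM in the negative and 21.95 to 24.3 CPM in the positive libraries, a log2 fold change of 2.04 ± 0.23. From the pathway lists, Slc25a20, the carrier that swaps acylcarnitine for carnitine, rose likewise (2.10 ± 0.18, adjusted p = 0.000124 by edgeR), and Cpt1b, the muscle-type isoform, was too low to be tested, at 0.420 to 1.49 CPM in the positive and 1.13 to 1.51 CPM in the negative libraries.

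Since Cpt1a and Cpt1c moved in opposite directions, the 250 bases before the RefSeq start site of each are shown (build GRCm38.p6, 5′ to 3′ on the gene's strand), with the core hexamer of nuclear receptor sites, AGGTCA on either strand, in capitals. The Cpt1a window lies at chr19:3323051-3323300 on the plus strand and the Cpt1c window at chr7:44974852-44975101 on the minus strand.
Cpt1a: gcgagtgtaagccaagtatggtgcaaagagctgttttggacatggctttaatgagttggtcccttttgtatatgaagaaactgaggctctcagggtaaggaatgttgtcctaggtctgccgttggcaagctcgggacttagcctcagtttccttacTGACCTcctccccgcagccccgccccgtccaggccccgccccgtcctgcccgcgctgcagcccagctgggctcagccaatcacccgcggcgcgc
Cpt1c: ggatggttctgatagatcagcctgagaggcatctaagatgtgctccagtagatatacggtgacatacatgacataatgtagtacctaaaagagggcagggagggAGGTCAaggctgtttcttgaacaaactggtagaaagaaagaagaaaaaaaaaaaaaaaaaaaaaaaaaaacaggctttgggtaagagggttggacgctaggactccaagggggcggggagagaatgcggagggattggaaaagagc
Each holds the hexamer 1 time, Cpt1a as its reverse complement. RefSeq windows of 300 bases (250 before to 50 after a start) were matched for 29 of the 35 members, 33 windows in all, and 7 of these 33 (21.2%) held AGGTCA, against 16.3% of all 32851 windows. The 7 genes were Acadm, Acadvl, Cpt1a, Cpt1c, Echs1, Phyh and Scp2. The direct repeat AGGTCANAGGTCA, the form that Ppara is known to bind with its partner Rxr, was in 0 of the 33 member windows and in 0.0396% of all windows. A match is a match of letters only, and both Cpt1a and Cpt1c have one.

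All 5 mitochondrial acyl-CoA dehydrogenases, which take the first step of each round and differ in the chain length they accept, rose in the astrocyte positive fraction. Acadl (long chains, chr1:66830839-66863309) had 229.6, 209 and 261 CPM in the positive libraries and 35.5, 38.5 and 36.8 CPM in the negative ones, a log2 fold change of 3.00 ± 0.16 (SE, adjusted p = 3.39e-05 by edgeR). This was a rise of similar size in the 3 mice, with the CPM 6.46, 5.42 and 7.10 times that of the same mouse's negative library. Acads (short chains) rose by 2.92 ± 0.25, Acadm (medium chains) by 2.42 ± 0.19 and Acadvl (very long chains) by 2.05 ± 0.20. Acadsb, which acts on short branched chains from isoleucine, rose least, by 1.27 ± 0.17, from 58.5, 75.3 and 73.1 CPM to 108, 136 and 148 CPM. Among relatives from the pathway lists, Acad11 rose (2.08 ± 0.16, adjusted p = 8.25e-05 by edgeR), whereas Acad9, which also serves complex I assembly, was not called (0.40 ± 0.15, adjusted p = 0.0551 by edgeR).

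The 5 enzymes of chain shortening rose as well, by log2 fold changes from 1.90 (Echs1) to 3.15 (Acaa2). Acaa2, the mitochondrial 3-ketoacyl-CoA thiolase, had 172, 144 and 136 CPM in the positive and 25.3, 21.4 and 18.2 CPM in the negative libraries. Hadh, the dehydrogenase for medium and short chains, had 149, 112 and 129.6 CPM against 24.4, 19.99 and 21.3 CPM, a log2 fold change of 2.92 ± 0.19. Hadha and Hadhb, the alpha and beta subunits of the trifunctional protein for long chains, rose by 1.99 ± 0.19 and 2.54 ± 0.14. They were not equal: per kilobase of exon, Hadha stood at 0.367 to 0.502 times the level of Hadhb within the positive libraries and at 0.555 to 0.701 times within the negative ones, ranges that did not overlap. Echs1, the short-chain hydratase, had the largest SE of the 5 (0.28), with 207, 148 and 161 CPM against 80.3, 45 and 51.1 CPM.

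Hadha and Hadhb lie head to head on chromosome 5, with 272 bases between their RefSeq start sites, so both are read outward from 1 stretch of sequence. The 228 bases shared by their upstream windows are shown (GRCm38.p6, chr5:30155003-30155230, plus strand, the strand of Hadhb), with the GC box GGGCGG on either strand in capitals.
Hadha and Hadhb: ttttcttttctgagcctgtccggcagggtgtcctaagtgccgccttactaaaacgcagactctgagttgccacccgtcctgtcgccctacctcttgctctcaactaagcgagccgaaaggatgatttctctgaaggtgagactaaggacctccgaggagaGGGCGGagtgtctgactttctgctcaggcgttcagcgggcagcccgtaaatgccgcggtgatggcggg
The GC box occurred 1 time here. It was in 24 of the 33 member windows (72.7%), and in 35.7% of all windows, while AGGTCA is not in this stretch.

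The electron transfer flavoprotein takes electrons from the acyl-CoA dehydrogenases to the respiratory chain. Its subunits Etfa and Etfb rose by 2.00 ± 0.23 and 2.42 ± 0.41, and Etfdh, the oxidoreductase that passes the electrons on to ubiquinone, by 1.71 ± 0.20. Etfb varied widely between mice, with 363, 163 and 162 CPM in the positive libraries of mice 290, 293 and 294. Mouse 290 was the highest in the negative fraction too, where the mice had 75.2, 48.4 and 40.3 CPM, so that within mice the positive library held 4.83, 3.38 and 4.02 times the CPM of the negative one.

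Of the helpers that unsaturated chains need, the mitochondrial 2,4-dienoyl-CoA reductase Decr1 and the enoyl-CoA isomerases Eci1 and Eci2 rose, by 2.56 ± 0.25, 2.92 ± 0.30 and 2.68 ± 0.22. Eci1 had 153, 87.3 and 96.5 CPM in the positive libraries and 24.2, 16.3 and 16.3 CPM in the negative ones. The peroxisomal reductase Decr2 was unlike its mitochondrial counterpart: it had 25.7, 30.5 and 35.6 CPM in the positive and 33.6, 33.3 and 36.6 CPM in the negative libraries, groups that overlapped although the positive library was the lower one in 3 of 3 mice (log2 fold change 0.17 ± 0.16, adjusted p = 0.406 by edgeR).

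**Figure D2:**
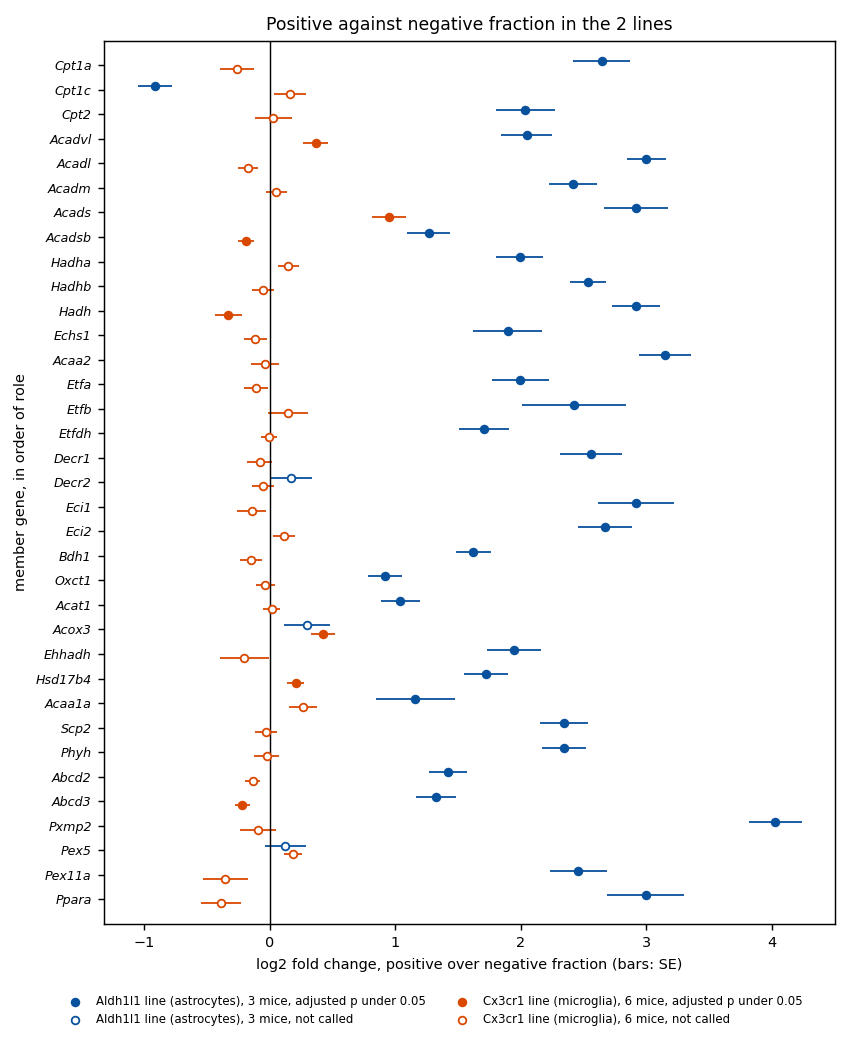
Log2 fold change of the positive over the negative fraction (x axis, bars are SE) for each member (y axis) in the Aldh1l1 line (blue, 3 mice) and the Cx3cr1 line (orange, 6 mice), filled where the adjusted p was under 0.05. The blue points lie at 0.92 or above except for Cpt1c, Decr2, Acox3 and Pex5, and the orange points lie between -0.39 and 0.95.

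The 3 ketone body enzymes rose, with a median log2 fold change of 1.04, beside 2.42 for the 5 dehydrogenases and 2.54 for the 5 enzymes of chain shortening. Bdh1, which interconverts beta-hydroxybutyrate and acetoacetate, had 168, 159 and 169 CPM in the positive and 66.4, 66.0 and 72.1 CPM in the negative libraries, a log2 fold change of 1.63 ± 0.14 (adjusted p = 0.000123 by edgeR). Oxct1, which activates acetoacetate for use as fuel, was abundant in every group and rose by 0.92 ± 0.13, from 356, 349 and 370.2 CPM to 484, 553 and 567 CPM. Acat1, the acetoacetyl-CoA thiolase, rose by 1.04 ± 0.16. Among 10 other ketone body genes and carriers tested from the lists, 3 were higher and 2 lower, with a median log2 fold change of 0.56. The largest change in this list was Bdh2, a second dehydrogenase named for beta-hydroxybutyrate (3.29 ± 0.44, adjusted p = 0.000805 by edgeR).

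Peroxisomal oxidation genes rose in 5 of 6 cases. Scp2, whose long form is the thiolase for branched chains and whose short form is a lipid carrier, had 515, 392 and 445 CPM in the positive and 130.1, 101 and 106 CPM in the negative libraries (log2 fold change 2.35 ± 0.19). Phyh, the hydroxylase that opens alpha-oxidation of phytanic acid, had 362, 287 and 316 CPM against 87.9, 76.7 and 76.9 CPM (2.35 ± 0.17). Ehhadh and Hsd17b4, the bifunctional enzymes of the inducible and the branched-chain routes, rose by 1.95 ± 0.21 and 1.72 ± 0.17, though Ehhadh was scarce, at 8.73 to 10.0 CPM against 2.74 to 3.44 CPM. Acaa1a, the peroxisomal thiolase, rose by 1.16 ± 0.31 (adjusted p = 0.0173 by edgeR), with 180.0, 109 and 108 CPM against 103, 66.1 and 57.0 CPM, so mouse 290 was again highest in both fractions. Its call was lost without mouse 293 or mouse 294 (adjusted p = 0.0790 and 0.0699), and reads may be divided between it and the near-identical Acaa1b, which had 4.85 ± 1.6 CPM (SD, n = 3) in the positive fraction and was not called. Acox3, an oxidase for branched chains, had 22.9, 35.1 and 32.5 CPM against 30.1, 31.9 and 31.4 CPM and was not called (0.30 ± 0.19, adjusted p = 0.212 by edgeR). Without mouse 290, Acox3 was called higher (0.41, adjusted p = 0.00931).

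Among the peroxisomal membrane proteins, Pxmp2, a pore of the peroxisomal membrane (chr5:110274286-110286168), had the largest fold of the 35 members. It had 60.6, 45.8 and 46.9 CPM in the positive libraries and 3.76, 4.41 and 3.70 CPM in the negative ones, a log2 fold change of 4.03 ± 0.21 (adjusted p = 3.37e-05 by edgeR). Within mice its CPM was 16.1, 10.4 and 12.6 times that of the negative library. The transporters Abcd2 and Abcd3, which bring very long chain and branched acyl-CoA into the peroxisome, rose by 1.42 ± 0.15 and 1.33 ± 0.16, and per kilobase of exon Abcd3 stood at 2.13 to 2.43 times the level of Abcd2 in the positive and 2.22 to 2.61 times in the negative libraries, ranges that overlapped. Pex11a, a peroxisome division factor linked to Ppara, had 12.9, 11.3 and 10.7 CPM against 2.28, 3.10 and 2.62 CPM. It passed the filter on low counts, over 20 counts in all libraries of a group, only through the positive libraries, since the negative library of mouse 290 held 20 counts. Its call therefore supports nothing here, and no fold is given. Leaving it aside, 30 members were higher in the positive fraction.

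Ppara (chr15:85735564-85806851) was scarce in the negative fraction and rose in the positive one. It had 18.6, 40.9 and 37.3 CPM in the positive libraries of mice 290, 293 and 294 and 4.90, 5.16 and 5.26 CPM in their negative libraries, a log2 fold change of 3.00 ± 0.31 (adjusted p = 0.000267 by edgeR). Mouse 290 lay well below the other 2 positive libraries and still above all negative ones, as it did for the summed astrocyte markers. Within mice the CPM in the positive library was 3.80, 7.92 and 7.08 times that in the negative one. Among 18 partners and targets tested from the lists, 10 were higher and 2 lower (median log2 fold change 0.76), with Ucp3, a mitochondrial carrier induced by fatty acids, the largest (3.15 ± 0.18, adjusted p = 4.16e-05 by edgeR).

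The wider pathways, from lists chosen with earlier results of these data known, held more higher than lower genes in this comparison. Of 20 other mitochondrial fatty acid oxidation genes tested, 14 were higher and 1 lower (median log2 fold change 1.35). Of 28 other peroxisomal enzymes tested, 20 were higher and 1 lower (median 1.39), led by Dao, the D-amino acid oxidase (3.52 ± 0.52, adjusted p = 0.00128 by edgeR, with 109 ± 52 CPM against 12.2 ± 5.7 CPM, SD, n = 3). The glutathione transferases Gstk1 (3.27 ± 0.28, adjusted p = 0.000130 by edgeR) and Mgst1 (3.22 ± 0.23, adjusted p = 7.80e-05 by edgeR) followed. Cat, catalase, which breaks down the hydrogen peroxide that peroxisomal oxidases make, had 181 ± 44 CPM against 46.8 ± 3.9 CPM (SD, n = 3) and rose (2.30 ± 0.21, adjusted p = 0.000169 by edgeR). Of 24 other peroxin and peroxisome membrane genes, 11 were higher and 3 lower, and their median of 0.51 was the smallest of the 5 lists. Pex7, the import receptor for the second targeting signal, was higher (1.24 ± 0.28, adjusted p = 0.00859 by edgeR), while Pex5 was not called.

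**Figure D3:**
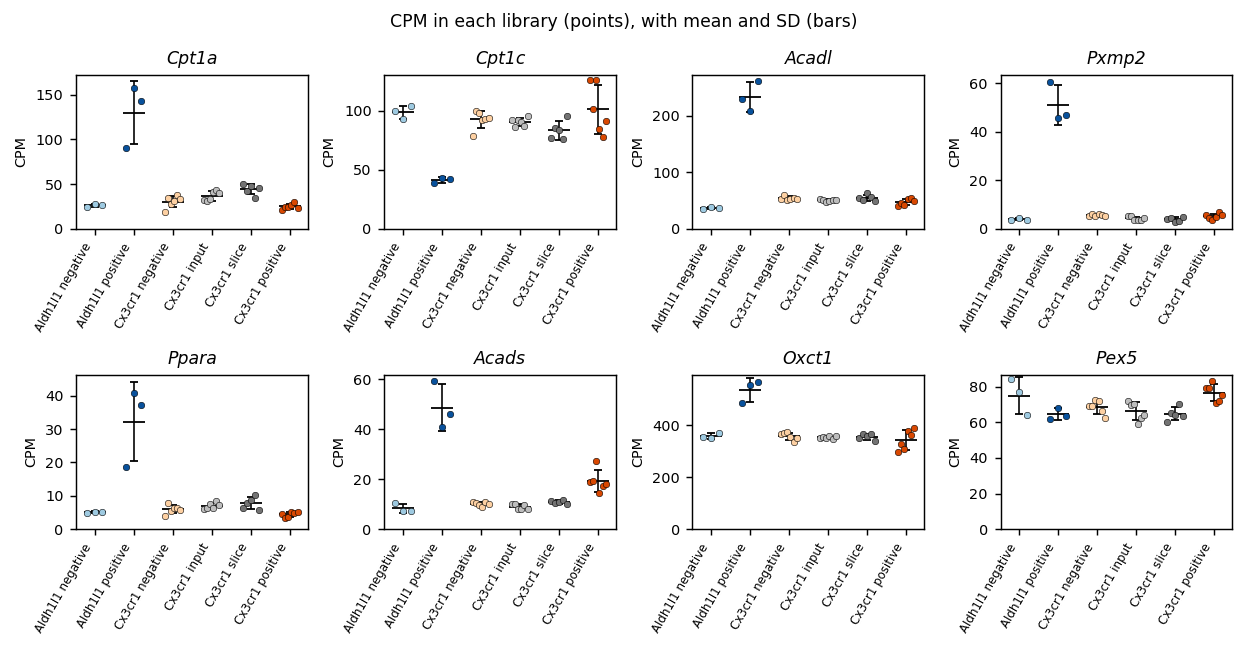
CPM (y axis, from 0) of 8 members in each library (points) of the 6 groups (x axis), with the mean and SD of each group (black bars). Cpt1a, Acadl, Pxmp2, Ppara and Oxct1 are highest in the 3 Aldh1l1 positive libraries and Cpt1c is lowest there, Acads is raised in both positive fractions, and Pex5 overlaps between the Aldh1l1 positive and negative libraries.

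The positive fractions of the 2 lines were then set side by side, which asks how astrocyte and microglial ribosome-bound RNA differ. However, cell type and mouse line cannot be told apart here. Time from tamoxifen to collection may differ between the lines too, since the paper delayed collection in the Cx3cr1 line, and cannot be told apart either. The same limits hold for the interaction below. Again 31 members were higher in the astrocyte fraction, 1 was lower (Cpt1c) and 3 were not called (Decr2, Acox3 and Pex5), with a median log2 fold change of 1.69 against -0.08 over all 13676 genes tested. Of all genes tested, 30.6% were higher and 33.1% lower, and with total counts alone those calls split into 2875 and 6312 genes in place of 4188 and 4530. Of the marker lists, 16 of 16 astrocyte, 9 of 9 choroid plexus (median log2 fold change 2.28) and 3 of 4 ependymal markers tested were higher in the astrocyte fraction, while 16 of 16 microglia, 13 of 13 neuron and 9 of 11 oligodendrocyte markers were lower. Of the oligodendrocyte markers 1 was higher, and of 9 oligodendrocyte precursor markers 3 were higher and 5 lower. Their part in the members was not tested. Pxmp2 had the largest difference, 3.61 ± 0.18 (SE), with 45.8 to 60.6 CPM in 3 astrocyte libraries and 3.67 to 6.78 CPM in 6 microglial libraries. Ppara followed at 3.17 ± 0.23, with 18.6 to 40.9 CPM against 3.35 to 5.09 CPM, and then Hadh at 2.90 ± 0.14, Acaa2 at 2.79 ± 0.15 and Cpt1a at 2.69 ± 0.16. The smallest of the called increases were Acat1 at 0.93 ± 0.11, Oxct1 at 0.95 ± 0.11 and Acaa1a at 1.00 ± 0.18. Cpt1c stood at 38.4 to 42.9 CPM against 78.0 to 126 CPM, a difference of -0.99 ± 0.19 (adjusted p = 0.000966 by edgeR). Acox3 lay lower in every astrocyte library in CPM (22.9 to 35.1 CPM against 40.2 to 48.8 CPM), was not called under TMM (-0.20 ± 0.15, adjusted p = 0.241 by edgeR) and was called lower with total counts alone (-0.51, adjusted p = 0.00964). From the pathway lists, 15 of 20 other mitochondrial oxidation genes tested were higher and 1 lower, 21 of 28 other peroxisomal enzymes were higher and 1 lower, and 17 of 24 peroxin and membrane genes were higher and 4 lower. Of 10 other ketone body genes 6 were higher and 3 lower. Among 19 partners and targets of Ppara 10 were higher and 4 lower. Cd36, a fatty acid transporter of phagocytes, stood at 0.134 to 0.595 CPM in the astrocyte and 3.62 to 9.80 CPM in the microglial fraction. It passed the filter on low counts only through the microglial libraries, so no fold is given.

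Whether the positive over negative ratio differed between lines was tested as an interaction of line and fraction over the 4 groups. It was larger in the Aldh1l1 line for 31 members, smaller for 1 (Cpt1c, -1.12 ± 0.21 on the log2 scale, SE, adjusted p = 0.000178 by edgeR) and not called for Decr2, Acox3 and Pex5. Over all 13983 genes tested 25.5% were larger and 29.9% smaller, and with total counts alone the calls split into 2600 and 5719 genes in place of 3572 and 4179. The median difference of the members was 1.97, against -0.11 over all genes tested. The largest differences were those of Pxmp2 (4.08 ± 0.23), Ppara (3.34 ± 0.31), Hadh (3.21 ± 0.19), Acaa2 (3.15 ± 0.21) and Acadl (3.13 ± 0.14). With total counts alone the call of Acaa1a was lost (0.58, adjusted p = 0.072) and Acox3 and Pex5 were called smaller (-0.44 and -0.38). Of the marker lists, 16 of 16 astrocyte, 9 of 9 choroid plexus (median 3.10) and 3 of 5 ependymal markers tested were larger. Smaller were 16 of 16 microglia, 13 of 13 neuron and 9 of 11 oligodendrocyte markers, with 1 oligodendrocyte marker larger. Of 9 oligodendrocyte precursor markers 3 were larger and 6 smaller. What these lists add to the member differences was not tested.

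In the microglial positive fraction, most members stood near the level of the other fractions, and a few moved in either direction, with called log2 fold changes from -0.82 (Cpt1a against slice) to 1.12 (Acads against input). Against the negative fraction 4 members were higher and 3 lower, of 13776 genes tested with 12.8% higher and 11.6% lower. Against input 8 were higher and 6 lower, where 23.3% and 25.6% of all 13838 genes tested were higher and lower, and against slice 5 were higher and 8 lower, where 27.5% and 24.3% of 13470 were. These shares are near or under the background, and the median log2 fold changes of the members were -0.04, 0.07 and -0.04. The 3 comparisons share the positive libraries. In all, 16 members were called in at least 1 of them. Leaving out 1 mouse at a time gave 2 to 6 higher and 0 to 4 lower against the negative fraction. Leaving out mouse 155 gave 6 higher and 4 lower against the negative fraction, while leaving out mouse 192 gave 2 higher and 0 lower and leaving out mouse 194 gave 2 higher and 0 lower.

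Acads (chr5:115110299-115119346) had the largest change of the members in microglia. It had 18.9, 19.2, 27.2, 14.5, 17.4 and 18.2 CPM in the positive libraries of mice 155, 192, 194, 209, 210 and 277, 8.94 to 10.9 CPM in the negative, 8.06 to 9.94 CPM in the input and 10.1 to 11.7 CPM in the slice libraries. No positive library reached down to any other group, and the log2 fold changes were 0.95 ± 0.14 against negative, 1.12 ± 0.14 against input and 0.86 ± 0.16 against slice (adjusted p = 0.000137, 1.95e-05 and 0.000576 by edgeR). Mouse 194, the highest for Acads, also had the highest summed level of microglia markers (11384 CPM, against 4777 to 7436 CPM in the others), and the part of this in the result was not tested. Acadvl was higher in all 3 comparisons too, by 0.37 ± 0.10, 0.61 ± 0.10 and 0.38 ± 0.11, with 73.8 to 104 CPM in the positive and 50.4 to 61.0 CPM in the input libraries. Against the negative fraction its call was lost without mouse 192 or mouse 194 (adjusted p = 0.0668 and 0.0654). Thus, of the 5 acyl-CoA dehydrogenases, the short-chain and the very long-chain one rose, Acadsb fell (-0.19 ± 0.06, -0.15 ± 0.05 and -0.19 ± 0.07), and Acadl and Acadm were not called. The calls of Acadsb were fragile: that against input was lost without any 1 of the 6 mice (adjusted p = 0.0597 to 0.157), and those against negative and slice were each lost without any 1 of 5.

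Peroxisomal genes accounted for part of the other changes in microglia. Acox3, not called in astrocytes, had 40.2 to 48.8 CPM in the microglial positive libraries, above the 24.9 to 38.1 CPM of the negative and the 33.3 to 38.3 CPM of the input libraries, and rose by 0.43 ± 0.09 and 0.28 ± 0.07 (adjusted p = 0.00492 and 0.00579 by edgeR), beside 0.30 between the astrocyte fractions. Against slice it was not called (0.20 ± 0.08, adjusted p = 0.0556 by edgeR). Acaa1a rose by 0.49 ± 0.08 against input and by 0.53 ± 0.09 against slice, with 69.4 to 92.1 CPM in positive and 53.0 to 69.1 CPM in input libraries. The paralog Acaa1b was called higher against input as well, with groups that overlapped. Against slice Acaa1b passed the filter on low counts only through the positive libraries (slice of mouse 210: 2.17 CPM of 4260949 counts), so that call is left aside. Pex5 rose by 0.23 ± 0.07 against input and 0.27 ± 0.08 against slice, and Hsd17b4 by 0.21 ± 0.07 against the negative fraction and 0.21 ± 0.06 against input. The call of Hsd17b4 against the negative fraction was lost without any 1 of 5 mice (adjusted p = 0.0788 to 0.170), without a filter on low counts and with total counts alone (adjusted p = 0.0739), and that of Pex5 against slice was lost without mouse 192. Among members with lower levels, Abcd3 fell in the 3 comparisons (-0.22 ± 0.06, -0.33 ± 0.06 and -0.34 ± 0.07), and Abcd2 fell against input (-0.28 ± 0.06) and slice (-0.37 ± 0.09), with 55.3 to 64.3 CPM in input and 44.9 to 52.7 CPM in the positive libraries. The call of Abcd3 against the negative fraction was lost without any 1 of 4 mice (192, 194, 210 or 277).

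Of the remaining members, Etfb rose in microglia by 0.50 ± 0.12 against input and 0.44 ± 0.13 against slice, although the positive libraries of mouse 155 (45.4 CPM) and mouse 194 (53.4 CPM) lay within the input range of 42.0 to 54.1 CPM. The call against slice was lost without mouse 192 or mouse 277. Eci2 rose by 0.27 ± 0.08 against input and was not called against the negative fraction or slice. Ppara fell against input (-0.63 ± 0.14) and slice (-0.75 ± 0.18), at 3.35 to 5.09 CPM in the positive and 5.94 to 8.51 CPM in the input libraries. Cpt1a fell likewise (-0.55 ± 0.11 and -0.82 ± 0.11), with 31.2 to 43.8 CPM in input, 35.0 to 50.2 CPM in slice and 21.2 to 30.2 CPM in the positive libraries. Hadh fell in the 3 comparisons (-0.33 ± 0.11, -0.32 ± 0.09 and -0.44 ± 0.11), though its call against the negative fraction was lost without any 1 of 5 mice and that against input without mouse 192. Against slice Pex11a (-0.61 ± 0.17) and Hadhb (-0.29 ± 0.10) fell, Hadhb with a call that was lost without any 1 of 4 mice (155, 192, 194 or 209). Astrocyte markers were lower in the same libraries, 12 of 16 against the negative fraction, 11 of 16 against input and 15 of 16 against slice, with medians of -0.46, -0.39 and -0.56 on the log2 scale. Oligodendrocyte markers were lower too, in 10, 10 and 11 of 11 cases (medians -0.71, -0.65 and -1.31), as were oligodendrocyte precursor markers in 7, 8 and 8 of 9 (medians -0.62, -0.67 and -1.01), and choroid plexus markers were lower in 4, 4 and 0 of 9. The part of these lists in the members was not tested. Endothelial markers were higher against the negative fraction (3 of 11) and input (5 of 11) and lower against slice (9 of 11). Of 8 pericyte and smooth muscle markers tested, 2, 4 and 5 were lower and 1, 1 and 0 higher in the 3 comparisons. Of 13 neuron markers 3, 4 and 4 were lower and 0, 0 and 3 higher. The part of these was not tested either.

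With the mouse as a block, several small microglial calls were lost in the paired fit. These were Abcd3, Acadsb and Hsd17b4 against the negative fraction (adjusted p = 0.0566, 0.0941 and 0.111 by edgeR), Acadsb and Hsd17b4 against input (adjusted p = 0.0736 and 0.0504), and Acadsb, Hadhb and Pex5 against slice (adjusted p = 0.140, 0.121 and 0.0515), so against the negative fraction 3 members were higher and 1 lower in the paired fit. Every member call of the astrocyte comparison and of the interaction was the same with this block.

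**Figure D4:**
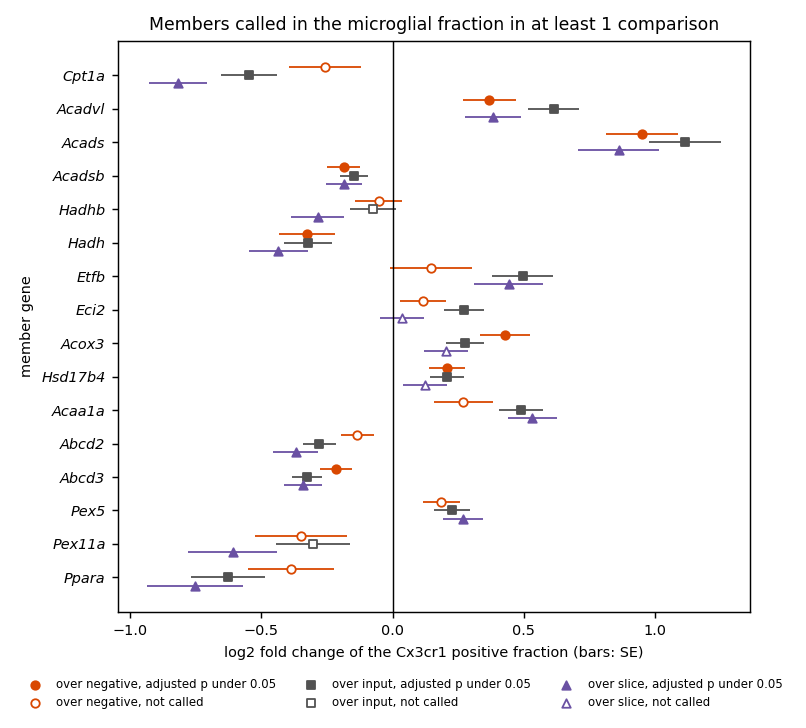
Log2 fold change of the Cx3cr1 positive fraction (x axis, bars are SE) over negative (orange circles), input (grey squares) and slice (purple triangles) for the 16 members (y axis) called in at least 1 comparison, filled where the adjusted p was under 0.05. Acads lies furthest to the right, at 0.86 to 1.12, and Cpt1a and Ppara furthest to the left against slice, at -0.82 and -0.75.

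The fractions that were not bound to beads were compared to see how far they stand for whole tissue. Of the members only Acadvl was called between the microglial negative fraction and input (0.27 ± 0.07 higher, adjusted p = 0.0444 by edgeR), where 1.41% of 13748 genes tested were higher and 4.7% lower. This call was lost without any 1 of 5 mice (adjusted p = 0.0881 to 0.175), without a filter on low counts (adjusted p = 0.0599), with all groups in one fit (adjusted p = 0.270) and under the fold cutoff of the study's methods. With the mouse as a block 11 members were higher and 2 lower (Cpt1a and Abcd2) in this comparison, by at most 0.40 on the log2 scale, and 2431 genes were higher and 2684 lower in all. Between input and slice Bdh1 was higher in input by 0.18 ± 0.05, and Cpt2, Acadvl, Acaa2, Eci2 and Hadhb fell by 0.44, 0.24, 0.28, 0.24 and 0.22 in input, where 16.3% and 14.2% of 13608 genes tested were higher and lower. The paired fit left 0 of these higher and 3 lower. Leaving out 1 mouse lost the calls of Bdh1 and Hadhb (either without 192, 194, 209 or 277), Cpt2 (without 192, 194 or 209), Acaa2 (without 210 or 277) and Eci2 (without 277). Lower in input as well were 8 of 16 astrocyte (median -0.23 on the log2 scale), 10 of 11 oligodendrocyte (-0.40), 4 of 9 oligodendrocyte precursor (-0.31), 11 of 11 endothelial (-1.29), 6 of 8 pericyte and smooth muscle (-0.94) and 3 of 4 ependymal markers tested (-0.83). Of the choroid plexus markers 3 of 9 were higher (0.70), and of 13 neuron markers 5 were higher and 3 lower. Their part in the members was not tested. Between the negative fractions of the lines, Acadl and Hadhb were lower in the Aldh1l1 line, with log2 differences of -0.51 ± 0.08 and -0.46 ± 0.07 (adjusted p = 0.0394 for both by edgeR), at 35.5 to 38.5 CPM against 50.4 to 60.2 CPM for Acadl and 52.0 to 56.8 CPM against 71.7 to 86.2 CPM for Hadhb. In that comparison 0.125% of 13613 genes were higher and 0.125% lower, or 17 and 17 genes, in place of 8 and 20 with total counts alone. The median log2 difference of the members was -0.18, against 0.01 over all genes tested. Astrocyte markers had a median log2 difference of -0.25 there, with 2 of 16 called lower, and choroid plexus markers one of -0.71, with 1 of 9 called lower, and their part in the result was not tested. Both member calls were lost when no filter on low counts was used and without any 1 of 7 of the 9 mice.

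The order of the levels also differed between the fractions. Per kilobase of exon, Etfb had the highest mean in the astrocyte positive fraction (257 ± 129 CPM per kilobase, SD, n = 3), ahead of Phyh (224 ± 26.4), Scp2 (170.1 ± 23.3) and Oxct1 (152 ± 12.6). Etfb varied most between mice (181 to 406 CPM per kilobase), and its range overlapped those of Phyh and Scp2 but not that of Oxct1 (137 to 161). In the microglial positive fraction Oxct1 had the highest mean (97.4 ± 10.7 CPM per kilobase, SD, n = 6), with Etfb (73.0 ± 14.8) and Phyh (70.9 ± 12.1) next and not apart from each other. In the astrocyte negative fraction Oxct1 was also the highest, at 102 ± 3.04 CPM per kilobase. At the other end, Ehhadh was last in the astrocyte positive fraction (3.11 ± 0.223), and Ppara and Pex11a were last in the microglial one (1.26 ± 0.214 and 1.27 ± 0.199), not apart from each other.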

How the data were processed

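Libraries from polyA RNA (strand-specific kit, paired-end 50 bases) were aligned by the authors to mm10 with RefSeq genes in Strand NGS. The deposited matrix holds the authors' raw values, which are expected counts (82.4% of nonzero values were not whole within 1e-6), and log2 values that the authors normalized with DESeq, which were not used here. Expected counts were rounded. CPM is the raw value per 1000000 of a library's total, and per-kilobase levels use GENCODE exon lengths. Of 36172 gene rows, 14057 were 0 in all 29 libraries. A gene was tested if all libraries of 1 or more of the groups compared had over 20 counts of it. The test was that of edgeR 4.0.16 in R 4.3.3 (TMM factors, robust quasi-likelihood test, two-sided, Benjamini-Hochberg adjustment over all genes tested, threshold 0.05). All 35 members passed this filter in each comparison. Groups came from the labels, and only the groups compared entered a fit. The fit was tested on simulated data. Alternatives were DESeq2 1.42.0, other scalings, no filter, the fold cutoff of the study's methods, all groups in one fit, the mouse as a block, and leaving out each mouse. Mouse numbers in the labels pair the libraries. Deviations from group means correlated above 0.1 in 3 of 3 pairs of the astrocyte fractions, in 3 of 6 of the microglial positive with negative, 3 of 6 of positive with input, 5 of 6 of negative with input, and 0 of 5 with slice.

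The members and pathway lists were chosen with earlier results of these data known. All members are given. From the pathway lists, the 5 called genes with the largest change and non-overlapping groups in each of the astrocyte comparison and the comparison of positive fractions were named, and direct partners or paralogs of members, some of which are not reported here. Cell type markers are given by list. Promoter windows and sequences are RefSeq's on GRCm38.p6. Figures were drawn with matplotlib 3.10.9 in Python 3.11.15.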

Additional observations from a re-analysis of the deposited data

Results flagged for a closer look

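Of 140 sets of member values, each the libraries of 1 group of 5 or 6, 13 held a library far from the others of its group by Dixon's test, where chance gives about 1 in 20, and 9 of the 13 were libraries of mouse 155. In the microglial negative fraction mouse 155 was highest for Acadvl (77.6 CPM, the others 62.7 to 66.1), Etfa (63.8 CPM, the others 50.6 to 54.3), Etfb (89.0 CPM, the others 48.7 to 57.0) and Acaa1a (93.8 CPM, the others 60.03 to 69.6), and lowest for Cpt1c (78.3 CPM, the others 92.5 to 99.4) and Ehhadh (2.64 CPM, the others 4.89 to 5.95). In the input it was highest for Echs1 (62.8 CPM, the others 49.7 to 53.4), Eci1 (26.7 CPM, the others 18.2 to 21.4) and Phyh (112 CPM, the others 87.2 to 96.1). Mouse 277 was highest for Abcd3 in the negative fraction (93.7 CPM, the others 83.2 to 86.7). Mouse 194 was highest in the microglial positive fraction for Acads (27.2 CPM, the others 14.5 to 19.2) and Acox3 (48.8 CPM, the others 40.2 to 43.1), and it also had the highest summed level of microglia markers there, at 11384 CPM. Mouse 210 was highest for Ehhadh in the slice (9.86 CPM, the others 4.00 to 5.19), in the library with the fewest counts. The part of depth in that value was not tested.

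The positive over negative ratio differed between the lines for 32 of 35 members by the interaction test of edgeR at an adjusted p under 0.05, beside 25.5% of all genes larger and 29.9% smaller. On the log2 scale, as the Aldh1l1 line minus the Cx3cr1 line, it was larger for the carnitine shuttle genes Cpt1a (2.86) and Cpt2 (1.97) and smaller for Cpt1c (-1.12). It was larger for the dehydrogenases Acadl (3.13), Acadm (2.32), Acads (1.93), Acadvl (1.64) and Acadsb (1.41), and for the chain shortening genes Hadh (3.21), Acaa2 (3.15), Hadhb (2.55), Echs1 (1.97) and Hadha (1.80). The electron transfer genes Etfb (2.24), Etfa (2.07) and Etfdh (1.67) and the helpers Eci1 (3.03), Decr1 (2.60) and Eci2 (2.52) followed. For the ketone body genes Bdh1, Acat1 and Oxct1 it was larger by 1.73, 0.99 and 0.91. Of the peroxisomal genes it was larger for Pxmp2 (4.08), Pex11a (2.76), Scp2 (2.33), Phyh (2.33), Ehhadh (2.10), Abcd2 (1.51), Abcd3 (1.499), Hsd17b4 (1.48) and Acaa1a (0.85), and it was larger for Ppara (3.34). The ratio was also larger for 16 of 16 astrocyte, 9 of 9 choroid plexus and 3 of 5 ependymal markers tested. It was smaller for 16 of 16 microglia and 13 of 13 neuron markers. What these markers add to the member differences was not tested.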

How the results depend on the processing

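No member changed direction between a call in the main test and any alternative. The same call was made in every alternative for 33 of 35 members between the astrocyte fractions, 33 between the positive fractions of the lines, 32 in the interaction, and 25, 25 and 26 in the microglial positive fraction against negative, input and slice. The cause of the changes below was not tested.

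Mice with the same number gave both libraries, so numbers pair samples by animal. The mouse as a block (a paired fit) gave 1 lower member between the microglial positive and negative fractions, 11 higher and 2 lower members and 2431 higher and 2684 lower genes between negative and input, and 0 higher and 3 lower members between input and slice. With total counts only, 2 members were lower between the positive fractions, 3 were smaller in the interaction, and 8 genes were higher and 20 lower between the negative fractions. The fold cutoff of the study's methods, added to the adjusted p, left 1 lower member between microglial positive and negative, 4 higher and 3 lower between positive and input, 0 higher members, 70 higher and 392 lower genes between negative and input, and 0 higher members, 1 lower member and 1278 lower genes between input and slice. Without a filter on low counts 0 members were lower between microglial positive and negative, 0 members and 53 genes were higher and 228 genes lower between negative and input, and 0 members were lower, 6 genes higher and 8 lower between the negative fractions. With all groups in one fit 0 members and 0 genes were higher and 59 genes lower between negative and input, 0 members were higher, 3 lower and 1121 genes higher between input and slice, and 26 genes were lower between the negative fractions. DESeq2 gave 5 higher members, 763 higher and 1287 lower genes between negative and input, and 256 higher and 261 lower genes between the negative fractions.

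Leaving out 1 mouse at a time gave 1977 to 4887 higher and 1600 to 4844 lower genes between the astrocyte fractions, with 30 to 32 members higher, the most without mouse 290 and the fewest without mouse 293 or 294. Between microglial positive and negative it gave 1151 to 2090 higher and 570 to 2183 lower genes and 2 to 6 higher and 0 to 4 lower members, the most without mouse 155 and the fewest without mouse 192 or 194, and against slice 3 to 5 higher members, the fewest without mouse 192. Between negative and input it gave 0 to 1774 higher and 0 to 2041 lower genes and 0 to 9 higher members, the most without mouse 155. Between input and slice it gave 1270 to 2697 higher and 1190 to 2698 lower genes, 0 to 1 higher and 2 to 9 lower members, the most without mouse 155 (members) or 210 (genes), and between the negative fractions 0 to 61 higher and 0 to 72 lower genes and 0 to 3 lower members. With 3 mice, the astrocyte comparison has few degrees of freedom, and the slice library of mouse 210 has the fewest counts.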
